A study of Mus musculus with 12 samples.

Results

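Adult mouse astrocytes kept for 22 h on brain sections of APdE9 mice were compared with the same kind of cell kept on sections of wild-type mice. The comparison rests on 6 of the 12 arrays of the study, chosen by their titles, with 3 arrays for each kind of section, and it was followed over 18193 genes. The cells expressed enhanced green fluorescent protein (eGFP), by which they were picked from the section under a fluorescence microscope after partial detachment with trypsin, and purity was checked by flow cytometry. They came from cortex and hippocampus of C57Bl/6j mice aged 6 to 8 weeks, were isolated over Percoll, a density medium, and were cultured in DMEM/F12 with the G5 supplement. APdE9 mice carry chimeric mouse/human APPSwe (amyloid precursor protein with the Swedish mutation) and PS1-dE9 (a presenilin 1 variant), each driven by its own mouse prion protein promoter, and the wild-type sections were from C57Bl/6j littermates. The other 6 arrays held astrocytes of newborn mice (3 d old in one part of the labels and 2 d in another) on the same 2 kinds of section. Those neonatal cells were isolated without Percoll and grown in DMEM without G5, so age cannot be told apart from isolation and medium. In both cultures 99.6% ± 0.6% of the cells were stained for GFAP, an astrocyte filament protein, and fewer than 0.4% were microglia, per the labels. Samples were pooled by 3 before RNA isolation, and nothing in the sources used here says which cells of a section stayed attached to the picked astrocytes. The p-values therefore measure the spread between pooled preparations.

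APdE9 mice deposit amyloid beta, a peptide cut from the amyloid precursor protein, as plaques in the brain. Astrocytes supply neurons with lipid, buffer glutamate and potassium, take up and degrade amyloid beta, and become reactive near plaques. Cultured astrocytes also divide, assemble actin stress fibres and secrete collagen-rich matrix, properties that are much weaker in the resting tissue.

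The deposited values were taken as log2 signals, although the labels state no log base. Each probe set's median over the 12 arrays had been removed from them. A value therefore says how far an array lies above or below that median, not how abundant a transcript is, and neither the presence of astrocyte markers nor the absence of other cells can be read from it. Below, where 3 values stand against 3 others, the first are wild-type arrays 1, 2 and 3 and the second APdE9 arrays 1, 2 and 3. A value given after ± is the standard error of the fit. The fit estimated the spread within groups from all 12 arrays, the neonatal ones included, not from the adult arrays alone. Array medians lay between -0.04 and 0.03. Pairs of replicate adult arrays correlated at 0.74 to 0.84 on wild-type sections and at 0.53 to 0.71 on APdE9 sections over 45037 probe sets.

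Between the 2 kinds of section, 3213 of 18193 genes (17.7%) differed at an adjusted p below 0.05, 1503 higher (8.26%) and 1710 lower (9.4%) on APdE9 sections. The median difference over all genes was 0.05 on the log2 scale. Arrays of the 2 groups did not overlap for 6552 genes (36.0%), of which 3694 (20.3%) were higher and 2858 (15.7%) lower. Over the 45037 probe sets 5.73% were called higher and 6.98% lower. The shares over genes are the background against which each group of genes is counted below. Members of antiviral, guanylate-binding and class I antigen presentation genes were mostly higher, and members of sterol synthesis, mitosis, contractile and collagen genes mostly lower.

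**Figure D1:**
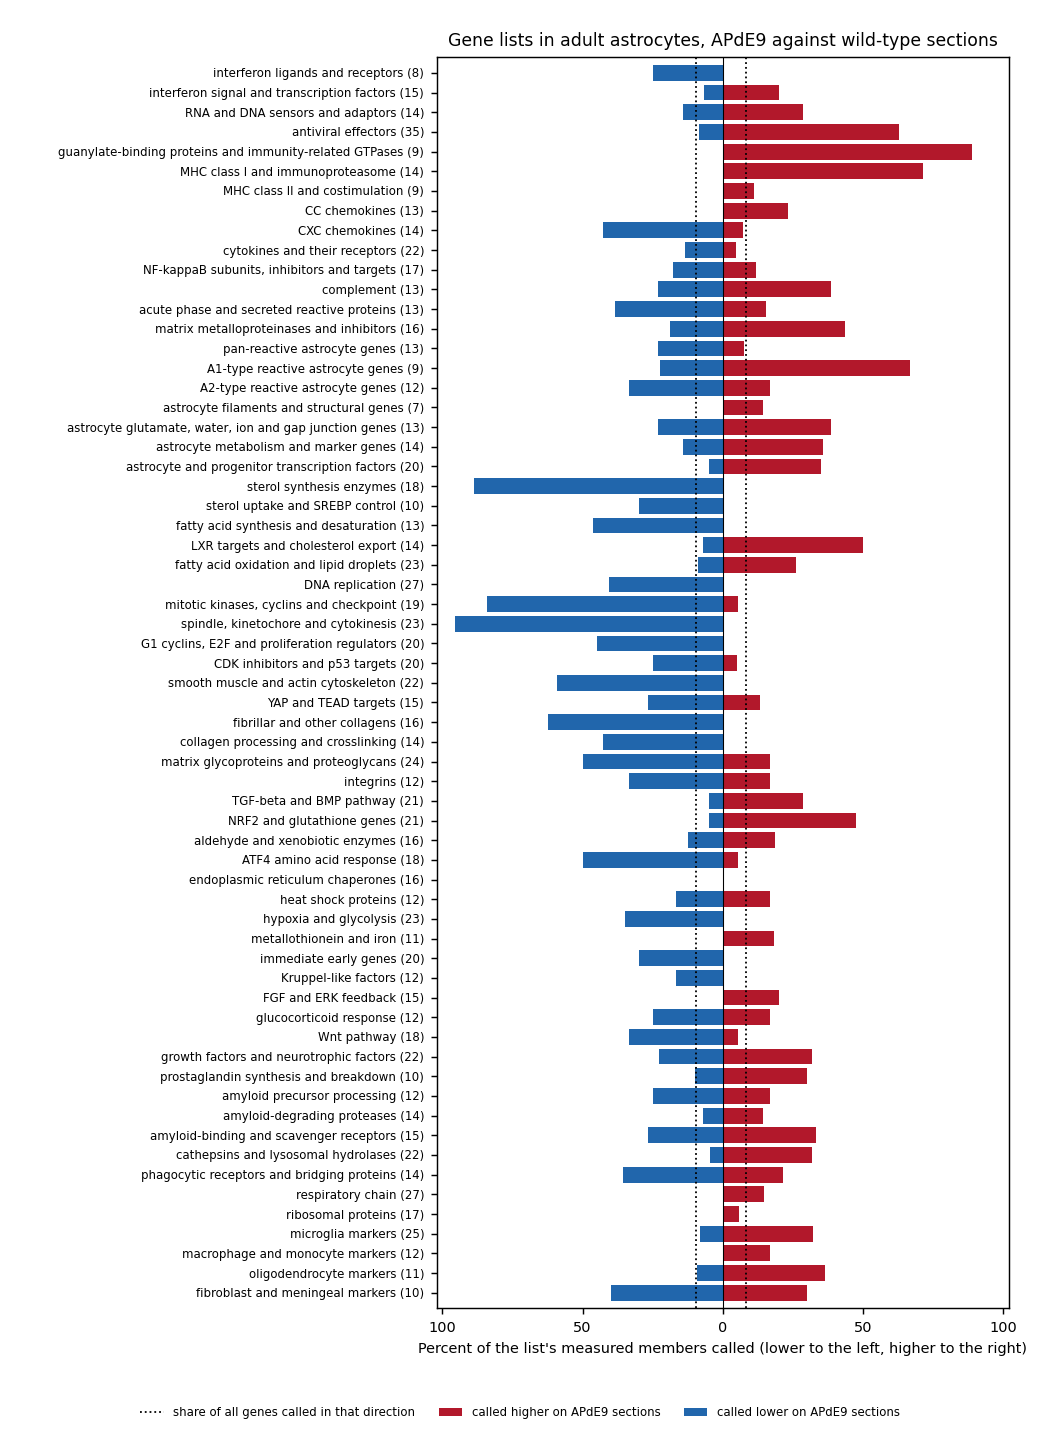
For each gene list drawn, bars give the percent of measured members called higher (red, right) or lower (blue, left) on APdE9 sections. The number of measured members is in brackets. Calls are at an adjusted p below 0.05, and dotted lines give the shares over all 18193 genes, 8.26% higher and 9.4% lower. Caveolar, neuron, oligodendrocyte progenitor, endothelial, pericyte, ependymal and lymphocyte lists are not drawn. Of 35 antiviral effectors 22 were called higher, and of 23 spindle and kinetochore genes 22 were called lower.

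Interferon-stimulated genes were higher in adult astrocytes on APdE9 sections. Type I interferons bind the receptor pair Ifnar1 and Ifnar2, whose kinases Jak1 and Tyk2 activate STAT proteins. With Irf9 these bind the interferon-stimulated response element, a promoter sequence, and induce effectors that block viral entry, copying and translation. The promoter stretches below belong to 5 effectors that rose, and are shown because the element lies in each of them. They are from RefSeq on build GRCm38.p6, are written in the direction of transcription, and capitals mark GAAA, any 2 bases and GAAA again, or TTTC, any 2 bases and TTTC on the other strand.

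Bst2: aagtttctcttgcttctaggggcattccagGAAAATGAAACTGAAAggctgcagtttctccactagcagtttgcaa
Rsad2: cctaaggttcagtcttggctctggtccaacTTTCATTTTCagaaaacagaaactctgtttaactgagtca
Ifit3: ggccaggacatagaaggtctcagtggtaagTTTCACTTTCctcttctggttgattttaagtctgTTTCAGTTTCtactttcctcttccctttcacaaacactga
Oas1a: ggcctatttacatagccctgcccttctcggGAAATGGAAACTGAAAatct
Ifit1: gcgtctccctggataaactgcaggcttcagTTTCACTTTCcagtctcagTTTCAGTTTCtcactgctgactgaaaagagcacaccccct

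These stretches lie at chr8:71537557-71537632 on the minus strand (Bst2), chr12:26456533-26456602 on the minus strand (Rsad2), chr19:34583343-34583446 on the plus strand (Ifit3), chr5:120907526-120907575 on the minus strand (Oas1a) and chr19:34640755-34640843 on the plus strand (Ifit1). All of them end upstream of the annotated start. In windows of 300 bases, from 250 before to 50 after the start and read on both strands, the element was found in 16 of 34 interferon-list members called higher (47.1%). It was found in 6 of 24 other members with a window (25%) and in 1079 of 27025 genes (3.99%). A match is a string of letters and was not tested as a binding site. In Bst2 and Oas1a the 2 matches overlap.

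The ligands and receptors at the head of the pathway gave no rise. Of 8 measured genes none was called higher by limma (1 at an unadjusted p below 0.05) and 2 were called lower, and the list's median difference was -0.14. Ifnb1, the gene of interferon beta, differed by 0.09 ± 0.18 (adjusted p = 0.787), and Ifnar1 by -0.16 ± 0.12 (adjusted p = 0.41). The receptor chain Ifnar2 read -0.03, 0.17 and -0.01 on wild-type sections and -0.53, -0.45 and -0.26 on APdE9 sections. Its groups did not overlap, and it fell by 0.46 on the log2 scale (adjusted p = 0.00669), although its 3 probe sets ranged from -0.95 to 0.11 and the most variable one, with the largest standard deviation over the arrays, gave -0.95.

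Downstream, 3 of 15 signalling and transcription factor genes rose and 1 fell. Irf7, the transcription factor that amplifies interferon production, read -3.53, -2.86 and -3.64 on the wild-type arrays and -0.47, -0.15 and -0.24 on the APdE9 arrays. All wild-type arrays lay far below all APdE9 arrays, a difference of 3.06 ± 0.17 (SE, 3 arrays a group, 8.32-fold, adjusted p = 2.22e-07). Usp18, a protease that removes the ubiquitin-like protein Isg15 and dampens receptor signalling, read -1.69, -0.82 and -1.89 against 0.17, 0.02 and 0.14, a rise of 1.58 ± 0.20 (adjusted p = 0.000199). Irf9 rose by 0.70 ± 0.13 (adjusted p = 0.00218). The kinases Jak1 and Tyk2 differed by -0.01 and 0.16, and Stat2 by 0.23, none of them called.

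Among antiviral effectors 22 of 35 rose and 3 fell, with a median difference of 0.55. Bst2, or tetherin, which holds budding virus particles on the cell surface, read -1.92, -1.85 and -1.91 against -0.18, 0.43 and 0.11. Rsad2, or viperin, an enzyme that makes a chain-terminating nucleotide, read -2.49, -1.73 and -3.21 against -0.12, -0.83 and -0.50. In both genes the lowest APdE9 array lay above the highest wild-type array, and the differences were 2.01 ± 0.18 (adjusted p = 1.31e-05) and 1.99 ± 0.31 (adjusted p = 0.000864). The oligoadenylate synthetases sense double-stranded RNA and activate RNase L. Their members Oas1a, Oasl1, Oasl2, Oas3 and Oas2 rose by 1.69, 1.60, 1.58, 1.22 and 0.91. Ifit1 and Ifit3, which bind foreign RNA ends, rose by 1.58 ± 0.28 and 1.73 ± 0.19, with wild-type array 2 the highest of its group in both.

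The 3 effectors that fell were Ifitm1, Samhd1 and Ifi27 (-0.30). Ifitm1, a membrane protein that restricts virus fusion, read 0.03, 0.25 and 0.33 on wild-type and -0.73, -0.42 and -0.58 on APdE9 sections, a fall of 0.78 (adjusted p = 0.0036), while its relative Ifitm3 rose by 0.36. Samhd1, which depletes the nucleotides that reverse transcription needs, fell by 0.45 (adjusted p = 0.00101). Its most variable probe set gave -0.91. Mx1, a dynamin-like antiviral GTPase, differed by 0.38 ± 0.26 and was not called.

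Guanylate-binding proteins and immunity-related GTPases attack the membranes of vacuoles that hold pathogens. Of 9 measured, 8 rose, with a median of 0.97. Gbp3 read -1.57, -1.34 and -2.18 against -0.03, -0.28 and -0.12, a rise of 1.55 ± 0.17 (adjusted p = 4.2e-05). Iigp1, Gbp6 and Igtp rose by 1.30, 1.20 and 1.17. The member not called was Ifi47 (-0.17 ± 0.16). Since these genes form families of similar sequence, probe sets may read more than 1 of them.

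Class I molecules present peptides of the cell's own proteins to cytotoxic T cells. Of 14 genes for class I chains, peptide loading and the immunoproteasome, 10 rose and none fell, with a median of 0.61. The chain H2-K1 read -1.82, -1.90 and -1.98 against -0.58, -0.48 and -0.54, a rise of 1.37 ± 0.08 (adjusted p = 2.9e-07). Its partner B2m rose by 0.38, the peptide editor Tapbp by 0.60, the trimming peptidase Erap1 by 0.87, and the immunoproteasome subunits Psmb8, Psmb9 and Psmb10 by 0.72, 0.49 and 0.89. Nlrc5, the transactivator of class I genes, read -2.0, -1.15 and -1.47 against -0.36, -0.63 and -0.33 and rose by 1.10 ± 0.22. The peptide transporters Tap1 (0.24) and Tap2 (0.45) were not called, although the most variable probe set of Tap1 gave 0.66 (adjusted p = 0.00332). Of 9 class II and costimulation genes 1 rose, and the class II transactivator Ciita differed by 0.15 ± 0.09 (adjusted p = 0.326).

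Sensors of nucleic acid split in direction. Of 14 sensors and adaptors, 4 rose and 2 fell. Ifih1 (also MDA5), a sensor of long double-stranded RNA, read -1.02, -0.63 and -1.29 against 0.06, -0.20 and 0.18 and rose by 1.00 ± 0.16. Sting1, the adaptor of cytosolic DNA sensing, read 0.42, 0.68 and 0.69 against -0.30, -0.21 and 0.06 and fell by 0.75 (adjusted p = 0.00297). For both genes the arrays of the 2 groups did not overlap. The p200 genes, interferon-inducible DNA-binding proteins that lie in a run on 1 chromosome, were looked at after their values were seen. From Aim2 to Ifi202b the RefSeq order holds 12 coding genes, 8 of them measured and 4 called higher. The 4 were Ifi209 (1.58), Ifi207 (3.33), Ifi204 (2.68) and Mndal (1.85). Aim2, Ifi213, Ifi203 and Ifi202b, at the ends of the run, differed by 0.10, 0.30, 0.07 and 0.66 and were not called. These genes are close copies, so which of them changed is uncertain.

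**Figure D2:**
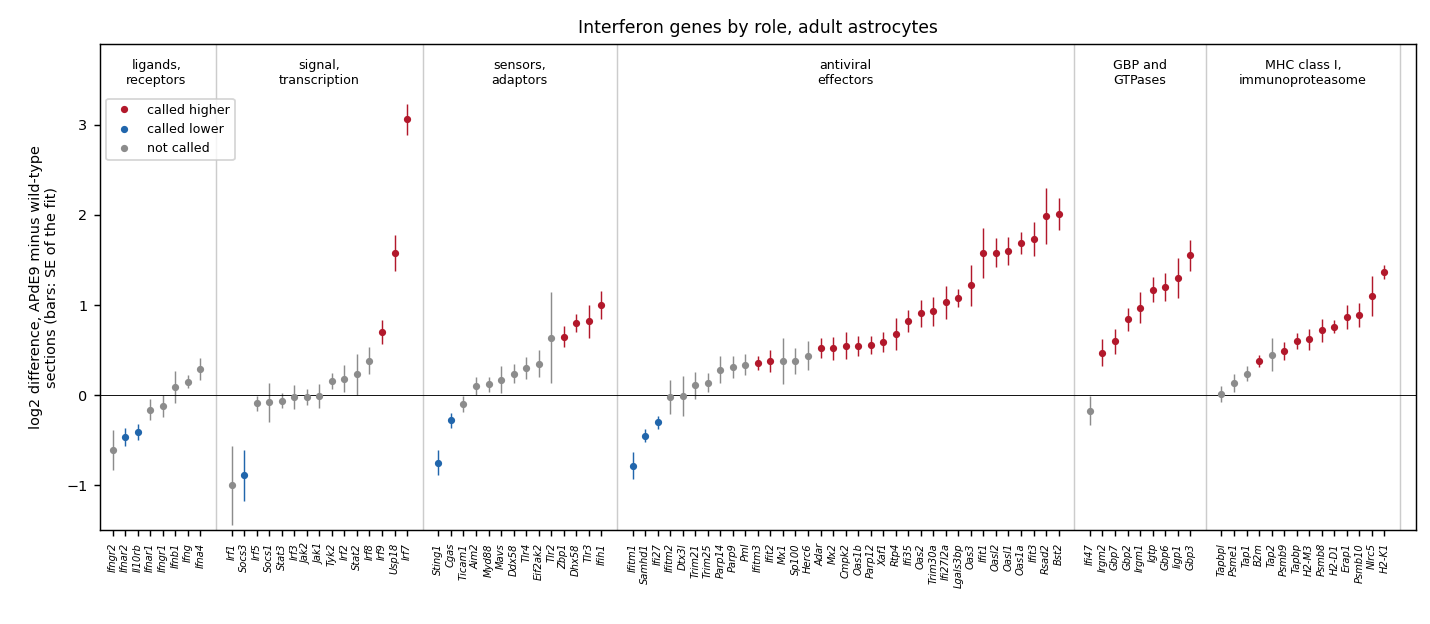
Each point is the log2 difference (APdE9 minus wild-type sections) of 1 gene in adult astrocytes, with the standard error (SE) of the fit, grouped by role and ordered by value within a role. Red points were called higher, blue lower and grey not called, and the highest point is Irf7 at 3.06.

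Chemokines moved in both directions. Chemokines are secreted proteins that draw leukocytes, the CXC family mainly neutrophils and the CC family mainly monocytes and T cells. Ccl5, a T cell and monocyte attractant, read -5.55, -5.54 and -5.64 on the wild-type arrays and -0.72, -0.48 and -0.62 on the APdE9 arrays. The gap between the groups was many times the spread within either, and Ccl5 had the largest rise of all named genes, 4.97 ± 0.08 (31.3-fold, adjusted p = 3.09e-12). Quantile normalization over the 12 arrays gave 3.19. Microglia and macrophages make Ccl5, and microglia markers, described further on, were higher on the same arrays (list means of -1.30 to -1.23 against -1.85 to -1.63). Their part in the result was not tested, and in such bulk samples more cells of a type cannot be told apart from more RNA per cell. Its neighbours in RefSeq order, Ccl9, Ccl6, Ccl3 and Ccl4, differed by 0.09, -0.06, 1.07 and 0.35, and none was called. Of 13 CC chemokines 3 rose, the others being Ccl11 (1.03) and Ccl8 (0.79). A fit of the 6 adult arrays alone called 5 higher, with Ccl3 (adjusted p = 0.00271) and Ccl4 (adjusted p = 0.0494) among them.

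Among 14 CXC chemokines 1 rose and 6 fell. Ppbp, or Cxcl7, made by platelets in the body, read 3.50, 3.54 and 3.41 against -2.40, -2.32 and -1.81. Cxcl5, a neutrophil attractant, read 5.14, 5.23 and 5.20 against 0.99, 0.36 and 0.92. Both were high on every wild-type array. They fell by 5.66 (50.6-fold lower, adjusted p = 4.22e-08) and 4.43 (21.5-fold lower, adjusted p = 5.01e-08) on the log2 scale. In a run of 8 neighbouring coding genes from Rassf6 to Cxcl2, all measured and looked at after their values were seen, 5 were called lower. Rassf6, the gene next to Cxcl5 and no chemokine, fell by 1.75. Pf4 and Cxcl15, which lie between the genes that fell, differed by 0.25 and 0.03. Cxcl1 (-1.87 ± 0.56) and Cxcl3 (-1.36 ± 0.43) passed narrowly, with adjusted p of 0.0377 and 0.0483. The call of Cxcl3 was lost without any one of the 6 adult arrays, with differences from -1.5 to -1.26, and that of Cxcl1 without wild-type array 1 or 2 or APdE9 array 1 or 3, with differences from -1.97 to -1.48. Elsewhere, Cxcl14 fell by 1.21 and Cxcl12, the ligand of Cxcr4, by 0.56, while Cxcl16, a ligand with a transmembrane stalk, rose by 1.28. The interferon-inducible T cell attractant Cxcl10 differed by 1.33 ± 0.73 and was not called; without wild-type array 2 it differed by 2.2 and passed (adjusted p = 0.0406).

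Cytokines were called in both directions. Of 22 cytokines and receptors 1 rose and 3 fell, beside 8.26% of all genes called higher and 9.4% lower. Tnf, Il1b and Il6 differed by 0.45 ± 0.55, 0.38 ± 0.52 and -1.82 ± 0.61 and were not called. In a fit of the 6 adult arrays alone Il6 passed as lower (adjusted p = 0.00183) and Tnf as higher (adjusted p = 0.0261), and Il6 also passed in 6 of the other settings. Il33, an alarmin that astrocytes and oligodendrocytes release, read -0.11, -0.15 and -0.20 against 0.87, 0.72 and 0.80 and rose by 0.95 ± 0.13 (adjusted p = 0.000333). Il6st, the shared receptor chain gp130 of the interleukin 6 family, read 1.15, 1.06 and 0.94 against -0.16, -0.28 and -0.17 and fell by 1.25 (adjusted p = 3.93e-06). Osmr, the oncostatin M receptor chain, fell by 0.43 (-0.69 for its most variable probe set). Of 17 NF-kappaB genes, 2 rose and 3 fell, but no fall was called without APdE9 array 1, without wild-type array 2 or with quantile normalization, and 1 without APdE9 array 2 or 3 or wild-type array 3. Those that rose were the subunit Rela (0.52) and the adhesion receptor Vcam1 (1.05, 2.04 for its most variable probe set).

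Several secreted defence proteins of reactive astrocytes rose. Cfb, the complement factor B of the alternative pathway, read -2.57, -2.11 and -2.59 against 0.13, 0.17 and 0.21. Lcn2, or lipocalin 2, which binds bacterial iron carriers, read -5.72, -5.14 and -5.19 against -2.66, -2.45 and -2.45. Saa3, a serum amyloid A protein, read -3.36, -2.80 and -3.99 against -0.54, -0.34 and -0.37. In all 3 the wild-type arrays lay below every APdE9 array, and the rises were 2.60 ± 0.14, 2.83 ± 0.14 and 2.97 ± 0.26. With quantile normalization Lcn2 differed by 1.37. Other members of that list fell. The pattern recognition protein Ptx3 read 1.67, 1.78 and 1.80 against 0.06, -0.16 and 0.17 and fell by 1.72 (adjusted p = 7.01e-06), and haptoglobin (Hp) fell by 1.00. Of 13 acute phase genes 2 rose and 5 fell. Of 13 complement genes 5 rose and 3 fell, but 3 rises were called without any one of 4 adult arrays (wild-type array 1 or 2, APdE9 array 2 or 3), and quantile normalization left 2 rises and no fall. C2 rose by 0.59, and the C1q chain C1qc, which reads 0.12 with quantile normalization, by 1.01.

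Marker sets described for reactive astrocytes changed in both directions. Of 9 A1-type genes, a set induced by inflammatory stimuli, 6 rose and 2 fell, and 4 of those that rose (H2-D1, Iigp1, Gbp2 and Psmb8) also belong to the interferon and class I lists. Of 12 A2-type genes, described after ischaemia, 2 rose and 4 fell, with 1 fall called without APdE9 array 2 and 2 without APdE9 array 3, without wild-type array 2 or with quantile normalization. Of 13 pan-reactive genes 1 rose, Lcn2, and 3 fell, S1pr3 (-1.06), Steap4 (-0.90, -1.71 for its most variable probe set) and Osmr. Gfap, the filament gene that usually marks reactive astrocytes, read -1.65, -1.42 and -1.53 against -1.77, -1.84 and -1.68. Its difference of -0.23 ± 0.11 did not pass (adjusted p = 0.194), nor did that of Vim (0.01 ± 0.07) or Serpina3n (0.18 ± 0.12).

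Matrix metalloproteinases, enzymes that cut extracellular matrix, were among the genes with the largest rises. Mmp13, a collagenase, read -4.23, -3.20 and -5.07 against 0.37, 0.08 and -0.08. Mmp12, a macrophage elastase, read -2.96, -3.34 and -3.36 against -0.08, -0.24 and 0.05. Mmp3, or stromelysin 1, read -1.42, -1.64 and -1.45 against 0.48, 0.47 and 0.50. No array of one group reached the other, and the rises were 4.29 ± 0.48, 3.13 ± 0.13 and 1.98 ± 0.08. These 3 lie in a run of 7 neighbouring coding genes whose other members, Mmp1b, Mmp1a, Mmp10 and Mmp8, differed by -0.17, 0.08, 0.34 and 0.02 and were not called. Mmp9, a gelatinase that cuts amyloid beta, rose by 0.69. In the list of 16 metalloproteinases and inhibitors 7 rose and 3 fell, among them Mmp23 (-1.69) and the membrane inhibitor Reck (-0.74).

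**Figure D3:**
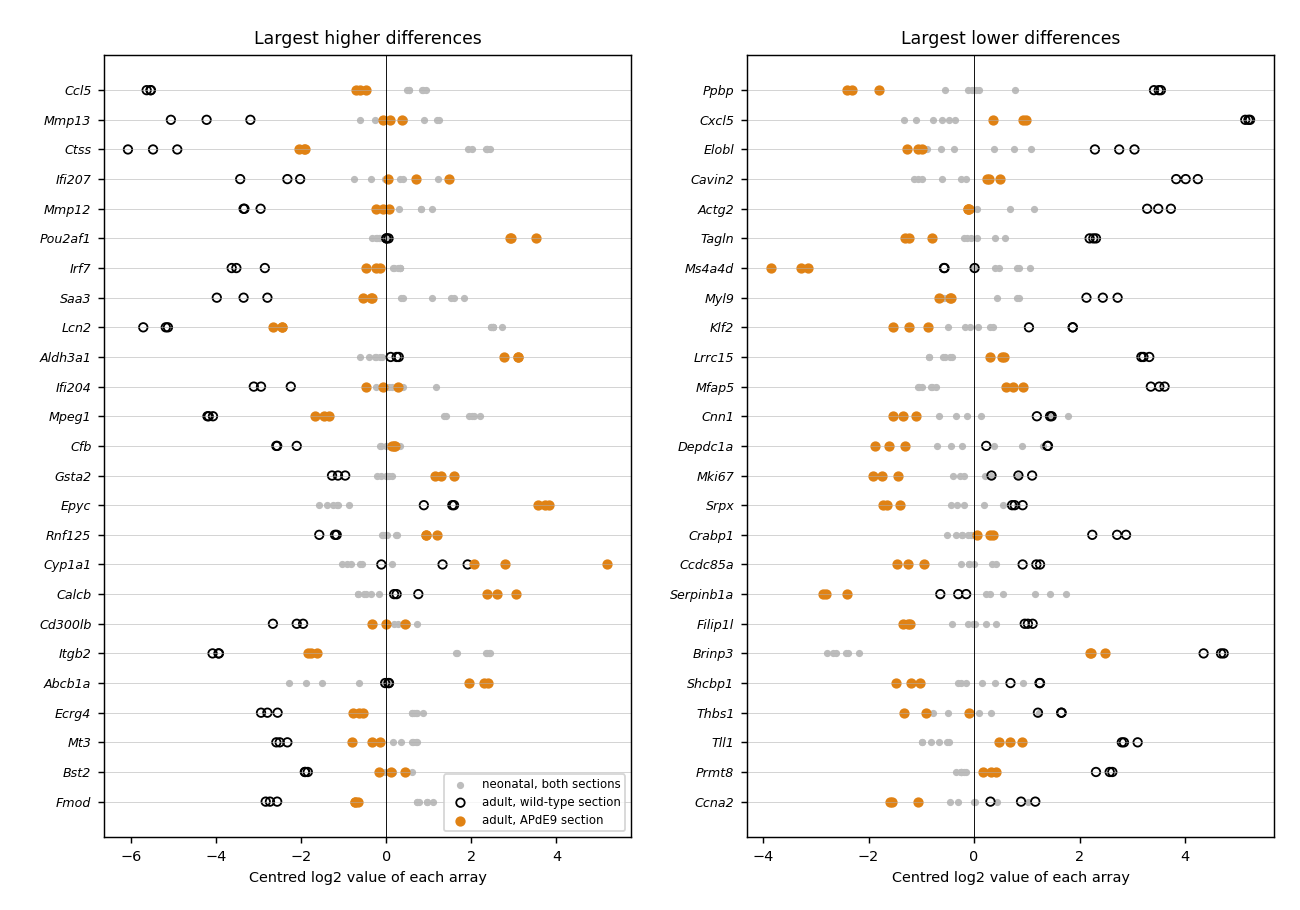
Every array's centred log2 value for the 25 genes with the largest called rises (left) and falls (right) whose adult groups do not overlap. Open circles are adult cells on wild-type sections, orange adult cells on APdE9 sections and grey both neonatal groups; for Ccl5 the wild-type arrays lie near -5.6 and all others between -0.72 and 0.93.

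The arrays of the 25 largest rises and falls were set against the neonatal cells, counting a position only on the side of the difference (for a rise, wild-type arrays below or APdE9 arrays above all 6 neonatal arrays). Among the 25 largest rises the wild-type arrays met this for 17 genes, the APdE9 arrays for 6, and both for 2. Among the 25 largest falls these counts were 10, 8 and 6, with 1 gene in none of these classes. Aldh3a1, a corneal and stress-induced aldehyde dehydrogenase, is one of those counted for the APdE9 arrays, although its wild-type arrays too lay above the neonatal ones: it read 0.29, 0.24 and 0.10 against 3.09, 3.10 and 2.76 in adult cells and -0.14, -0.25 and -0.10 against -0.26, -0.62 and -0.42 in neonatal cells on wild-type and APdE9 sections. Pou2af1, a B cell coactivator, was also counted for the APdE9 arrays, with 0.00, 0.05 and 0.00 against 2.93, 2.90 and 3.52. These counts are a description of where values lie, since the adult wild-type arrays enter both the difference and the position.

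Contractile genes fell in adult astrocytes on APdE9 sections. They encode the actin filaments, tropomyosins and myosin regulators of smooth muscle, which cultured cells on stiff surfaces also assemble into stress fibres. Serum response factor drives many of them through the CArG box. The 3 promoter stretches below carry the box in capitals and belong to members that fell.

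Myl9: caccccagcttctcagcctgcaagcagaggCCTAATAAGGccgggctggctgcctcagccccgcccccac
Cnn2: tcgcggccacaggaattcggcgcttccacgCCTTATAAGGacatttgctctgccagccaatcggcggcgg
Vcl: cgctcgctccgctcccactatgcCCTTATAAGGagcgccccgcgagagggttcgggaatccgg

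They lie at chr2:156775273-156775342 on the plus strand (Myl9), chr10:79988514-79988583 on the plus strand (Cnn2) and chr14:20929148-20929210 on the plus strand (Vcl) in GRCm38.p6. The CArG box, searched on both strands, was in the 300-base window of 3 of 11 members called lower (27.3%), 1 of 8 others (12.5%) and 488 of 27025 genes (1.81%). Of the 22 genes of the list 13 fell and none rose, with a median of -0.60. Actg2, enteric smooth muscle actin, read 3.28, 3.49 and 3.73 against -0.11, -0.10 and -0.11. Tagln, an actin cross-linker, read 2.19, 2.31 and 2.26 against -1.24, -1.31 and -0.80. Myl9, a myosin regulatory light chain, read 2.13, 2.44 and 2.72 against -0.66, -0.45 and -0.43. All wild-type values were above 2 and all APdE9 values below 0. Falls were 3.60, 3.37 and 2.94 on the log2 scale, with adjusted p of 3.69e-07, 5.01e-08 and 1.42e-07. Calponins Cnn1 and Cnn2 fell by 2.70 and 2.16, and the tropomyosins Tpm2, Tpm4 and Tpm1 by 1.13, 0.95 and 0.85 (-1.66 for the most variable probe set of Tpm1). The factor itself, Srf, differed by 0.18 ± 0.22, and its coactivators Mrtfa and Mrtfb by 0.00 and 0.07, none called. Myh11, the smooth muscle myosin heavy chain that marks vascular muscle, differed by 0.03 ± 0.08. Cavin2, a coat protein of caveolae, read 3.83, 4.24 and 4.01 against 0.28, 0.25 and 0.50 and fell by 3.68 (adjusted p = 1.64e-08), while caveolin 1 (Cav1, -0.65 ± 0.31) was not called.

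Collagens fell with them. Of 16 collagen chains 10 fell and none rose, with a median of -0.83. Col1a1, the main chain of fibrous collagen, read 2.78, 2.74 and 2.92 against 0.99, 1.17 and 0.91. Col11a1, which nucleates fibrils, read 0.13, 0.37 and 0.30 against -1.43, -1.43 and -1.48, and Col5a1, which controls their width, 1.59, 1.29 and 1.19 against -0.08, -0.01 and -0.06. The groups were apart in each, and the falls were 1.79, 1.71 and 1.41, with adjusted p of 1.33e-05, 1.35e-06 and 2.5e-05. Col1a2, the partner of Col1a1, differed by -1.18 ± 0.50 and did not pass (adjusted p = 0.134). Of 14 genes that process or cross-link collagen 6 fell, among them Lox, lysyl oxidase (-1.42, -2.19 for its most variable probe set), P4ha2 (-1.05) and Loxl3 (-0.88).

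Other matrix genes split. Of 24 glycoproteins and proteoglycans 12 fell and 4 rose. Mfap5, of elastic microfibrils, read 3.35, 3.61 and 3.51 against 0.61, 0.74 and 0.92 and fell by 2.73 (adjusted p = 1.38e-08). Thrombospondin 1 (Thbs1), an astrocyte protein that promotes synapse formation and activates TGF-beta, read 1.66, 1.65 and 1.21 against -0.10, -0.91 and -1.32, a difference of -2.28 ± 0.47 (adjusted p = 0.005). Tenascin C (Tnc) fell by 1.97. Postn, or periostin, read 0.53, 0.70 and 0.62 against 1.93, 2.01 and 2.04 and rose by 1.38 ± 0.14 (adjusted p = 3.09e-05). The brain proteoglycan Ncan rose by 0.73 (0.46 with quantile normalization and 1.19 for its most variable probe set). Small leucine-rich proteoglycans, which bind collagen fibrils, had 2 of the larger rises, Epyc (2.37 ± 0.20) and Fmod (2.0 ± 0.08). In the run of 4 neighbours that ends with Epyc, Dcn rose by 0.53 (0.97 for its most variable probe set), Lum fell by 0.70 and Kera differed by 0.07. Lum lost its call with quantile normalization (-0.64) and without wild-type array 2 (-0.62).

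Of 12 integrins, the receptors for matrix, 4 fell and 2 rose. Itgb5, a vitronectin receptor chain, fell by 1.23, and Itga1, a collagen receptor chain, by 1.11, whereas Itga6, a laminin receptor chain, rose by 1.21 (adjusted p = 2.75e-05). TGF-beta is a main inducer of matrix and contractile genes. Among its ligands, Tgfb3 read -0.15, -0.41 and -0.49 against 0.78, 0.98 and 1.16, and Tgfb2 -0.66, -0.75 and -0.81 against 0.26, 0.53 and 0.35. The rises were 1.32 ± 0.14 and 1.12 ± 0.09, and the TGF-beta-induced matrix protein Tgfbi rose by 1.14 ± 0.08. The receptors Tgfbr1 (-0.13) and Tgfbr2 (-0.22) and the inhibitor Smad7 (0.04) were not called. Of the 21 genes of this pathway 6 rose and 1 fell. Among 15 YAP and TEAD targets 4 fell, including connective tissue growth factor (Ccn2, -1.14), and 2 rose. Without APdE9 array 1, 7 were called lower.

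Genes of the cell cycle fell, with the highest shares among those of mitosis. Many of their promoters are held silent outside division through the cell cycle genes homology region. Capitals mark its letters (TTTGAA, reverse TTCAAA) in the stretches of 5 members that fell. Such a match is a string of letters and was not tested as a binding site. Only matches before the start are shown, and Ccnb2 and Ect2 also have a match after it.

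Ube2c: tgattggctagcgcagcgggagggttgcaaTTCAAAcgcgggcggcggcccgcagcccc
Prc1: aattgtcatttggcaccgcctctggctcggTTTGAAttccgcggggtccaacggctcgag
Ect2: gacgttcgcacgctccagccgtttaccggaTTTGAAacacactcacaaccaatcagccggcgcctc
Ccnb2: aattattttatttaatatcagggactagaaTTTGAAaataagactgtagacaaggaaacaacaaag
Cdk1: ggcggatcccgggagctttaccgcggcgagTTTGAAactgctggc

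They lie at chr2:164769870-164769928 on the plus strand (Ube2c), chr7:80294416-80294475 on the plus strand (Prc1), chr3:27153957-27154022 on the minus strand (Ect2), chr9:70421686-70421751 on the minus strand (Ccnb2) and chr10:69352913-69352957 on the minus strand (Cdk1) in GRCm38.p6. Read on both strands, TTTGAA was in the window of 23 of 31 mitotic and spindle members called lower (74.2%), of none of 4 others, and of 5466 of 27025 genes (20.2%). CCAAT, bound by NF-Y, was also in 23 of 31 (74.2%), in 2 of 4 others and in 11096 of 27025 genes (41.1%).

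Mki67, the proliferation marker Ki-67, read 0.33, 0.84 and 1.10 against -1.74, -1.92 and -1.44. Ccna2, the cyclin of S phase and G2, read 0.31, 0.89 and 1.16 against -1.56, -1.59 and -1.06. Cdk1, the kinase that starts mitosis, read 0.05, 0.63 and 0.68 against -1.30, -1.11 and -0.72. In each, wild-type array 1 was the lowest of its group but still above all APdE9 arrays. The falls were 2.46 (adjusted p = 5.98e-06), 2.19 (adjusted p = 0.000117) and 1.5 (adjusted p = 0.000946). Of 19 mitotic kinases, cyclins and checkpoint genes 16 fell and 1 rose, with a median of -1.16. The exception, the securin Pttg1 (0.25 ± 0.07), was not called without wild-type array 2 or 3 or APdE9 array 2 or 3, with differences from 0.22 to 0.25, nor with the 6 adult arrays alone (0.25), quantile normalization (0.2) or its most variable probe set (0.27). Among them the ubiquitin ligase partner Ube2c fell by 1.97, the kinases Bub1, Aurkb and Plk1 by 1.70, 1.69 and 1.37, and cyclin B2 (Ccnb2) by 1.53.

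Of 23 spindle, kinetochore and cytokinesis genes 22 fell, with a median of -0.97. The kinetochore motor Cenpe read 0.44, 0.94 and 1.14 against -1.36, -1.08 and -0.85 and fell by 1.94. Anillin (Anln), which holds the cleavage furrow, and Birc5, of the chromosomal passenger complex, fell by 1.91 and 1.87. The member not called was Kif18a (-0.37 ± 0.18). Of 27 DNA replication genes 11 fell, with a median of -0.34, and 7 were called when any one of 3 adult arrays was left out (APdE9 array 2 or wild-type array 2 or 3). Rrm2, which makes deoxynucleotides, read 0.51, 0.88 and 0.81 against -1.29, -1.61 and -1.28 and fell by 2.12 (adjusted p = 4.84e-06). The sliding clamp Pcna differed by 0.06 ± 0.09 and the helicase subunits Mcm2 and Mcm6 by -0.34 and 0.00, none called. Cyclins of G1 also fell, Ccne1 by 1.06 and Ccnd2 by 0.91. The inhibitor Cdkn1a (p21) differed by 0.28 ± 0.19 and the mitotic activator Foxm1 by -0.17 ± 0.09, neither called. Btg2, an antiproliferative early gene, fell by 1.72.

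Genes of cholesterol synthesis fell together. SREBP transcription factors, released when membrane sterol is low, switch these enzymes on through sterol regulatory elements. The stretch below is from the promoter of Hmgcs1, with the match to TCACNCCAC in capitals.

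Hmgcs1: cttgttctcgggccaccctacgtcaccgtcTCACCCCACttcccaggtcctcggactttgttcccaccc

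It lies at chr13:119690184-119690252 on the plus strand in GRCm38.p6. Read on both strands, Hmgcs1 was the 1 of 15 sterol genes called lower with this string in its window (6.67%), against none of 9 others and 388 of 27025 genes (1.44%). Of 18 enzymes 16 fell and none rose, with a median of -1.10. Hmgcs1, which makes the substrate of HMG-CoA reductase, read 0.88, 1.5 and 1.11 against -0.62, -0.49 and -0.44. Idi1, the isoprenoid isomerase, read 0.63, 1.19 and 1.12 against -0.50, -0.69 and -0.54, and Sqle, the first oxygen-dependent enzyme, 0.40, 0.77 and 0.72 against -0.50, -0.60 and -0.43. Every wild-type array was above every APdE9 array in all 3. The falls were 1.68 (-2.76 for its most variable probe set), 1.55 and 1.14 on the log2 scale, with adjusted p of 2.36e-05, 0.00109 and 0.000121. Nsdhl, Pmvk and Tm7sf2 fell by 1.49, 1.33 and 1.30. The regulator Srebf2 itself fell by 0.51 (adjusted p = 0.000551) and the sterol carrier Stard4 by 1.09, while Srebf1 (0.32) was not called. Of 13 genes of fatty acid synthesis and desaturation 6 fell, led by the desaturase Fads2 (-1.19) and the elongase Elovl6 (-0.76). This direction was shared by neonatal cells, where 13 of the 18 sterol enzymes fell (2.55% of all genes fell there), and the difference between the ages was called for 1 of the 18, Tm7sf2.

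Several genes of cholesterol export rose. Liver X receptors sense excess sterol and induce export proteins and lipoproteins. Of 14 such genes 7 rose and 1 fell, with a median of 0.41. Apoe, the main lipoprotein of astrocytes and a risk gene of Alzheimer's disease, read -2.58, -2.62 and -2.75 against -0.79, -0.56 and -0.84. No wild-type array came near an APdE9 array, and Apoe rose by 1.92 ± 0.09 (3.78-fold, adjusted p = 1.05e-07). Apod, another lipid carrier of glia, rose by 1.36 ± 0.15, the transporter Abca1 by 0.62 ± 0.13, lysosomal acid lipase (Lipa) by 1.00 ± 0.11 and the lysosomal sterol exporter Npc1 by 0.52 ± 0.08. Lpcat3, a phospholipid remodelling enzyme, fell by 0.77. The receptor gene Nr1h3 (-0.08 ± 0.11) and the transporter Abcg1 (0.41 ± 0.16) were not called. Fatty acid binding proteins went apart, Fabp7, of radial glia and astrocytes, rising by 1.13 ± 0.22 and Fabp5 falling by 2.09. Fabp5 read -1.14, -0.71 and -0.51 against -2.89, -2.86 and -2.89. Angptl4, a secreted lipase inhibitor induced by fatty acids, rose by 1.48 ± 0.19, and Pdk4, which spares glucose, by 1.25 ± 0.20.

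Several glutathione genes rose. The transcription factor NRF2 (Nfe2l2) induces glutathione synthesis and detoxifying enzymes through the antioxidant response element. The stretches of 2 members that rose carry TGACNNNGC, or its reverse complement GCNNNGTCA, in capitals.

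Gclm: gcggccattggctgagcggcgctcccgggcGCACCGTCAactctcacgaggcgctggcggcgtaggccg
Gsta3: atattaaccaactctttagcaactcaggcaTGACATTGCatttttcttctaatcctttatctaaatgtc

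They lie at chr3:122245393-122245461 on the plus strand (Gclm) and chr1:21240434-21240502 on the plus strand (Gsta3) in GRCm38.p6. Read on both strands, the string was in 3 of 8 members called higher (37.5%), 4 of 9 others (44.4%) and 3781 of 27025 genes (14.0%). Of 21 genes 10 rose and 1 fell, with a median of 0.48. Gclm, the regulatory subunit of the enzyme that limits glutathione synthesis, read -0.94, -0.71 and -0.62 against 0.82, 0.84 and 0.83. Gsta4, which conjugates a product of lipid peroxidation, read -0.38, -0.19 and 0.01 against 1.49, 1.71 and 1.75. Both were higher on every APdE9 array, by 1.59 ± 0.11 (adjusted p = 2.02e-06) and 1.84 ± 0.12 (adjusted p = 9.53e-07). The paralogue Gsta2, outside the list and close in sequence to the others, rose by 2.47 ± 0.13, the catalytic subunit Gclc by 0.91 ± 0.12, and Slc7a11, the cystine importer, by 1.44 ± 0.26 (1.12 and not called for its most variable probe set). The gene that fell was Gsr, glutathione reductase (-1.11 ± 0.19). Nfe2l2, Nqo1 and Hmox1, the last 2 usual targets, differed by -0.18, 0.37 and 0.48 and were not called, but Nqo1 passed with quantile normalization (0.83, adjusted p = 0.00187). Mt3, the metallothionein of brain, read -2.59, -2.51 and -2.33 against -0.35, -0.16 and -0.80 and rose by 2.04 ± 0.18, while Mt1 (0.26) and Mt2 (0.54) were not called. Mt1 passed for its most variable probe set (1.05, adjusted p = 0.000503) and Mt2 without wild-type array 2 (0.81, adjusted p = 0.0298).

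Several amino acid supply genes that ATF4, the factor of the integrated stress response, induces were lower. Of 18 such genes 9 fell and 1 rose, with a median of -0.53. Asns, asparagine synthetase, read 1.13, 1.21 and 1.27 against 0.08, -0.03 and 0.06, and Slc7a5, an importer of large neutral amino acids, 0.20, 0.09 and 0.23 against -1.46, -1.42 and -1.37. The groups were apart in both, and the falls were 1.16 and 1.59 (adjusted p = 2.08e-05 and 4.23e-06). Mthfd2, of mitochondrial folate metabolism, Chac1, which breaks down glutathione, and Psat1, of serine synthesis, fell by 1.64, 1.51 and 1.16. Atf4 differed by -0.08 ± 0.17 and Ddit3 by -0.45 ± 0.23 (-0.78, adjusted p = 0.00489, without wild-type array 3). Chaperones of the endoplasmic reticulum, induced by other arms of the unfolded protein response, gave no call in limma among 16 genes (3 at an unadjusted p below 0.05), and Hspa5 differed by 0.05 ± 0.13. Of 23 hypoxia and glycolysis genes 8 fell, or 4 without APdE9 array 2 or wild-type array 1 and 5 without wild-type array 2. Adm, adrenomedullin, read 0.94, 0.87 and 0.26 against -1.38, -1.49 and -1.38 and fell by 2.11 (adjusted p = 0.000107), whereas Vegfa (-0.46 ± 0.40) and Slc2a1 (-0.63 ± 0.21) were not called.

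**Figure D4:**
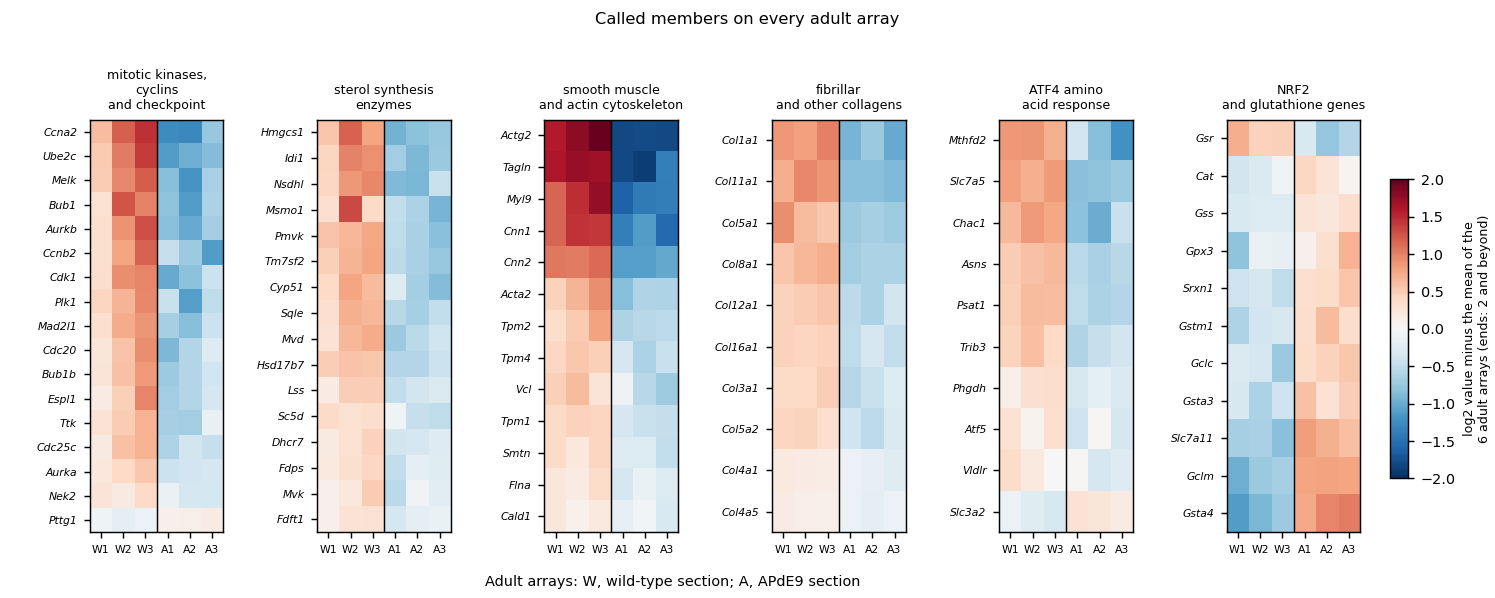
Log2 value of each of the 6 adult arrays minus their mean (colour; red above, blue below) for the called members of 6 gene lists, with wild-type sections left of the line (W1 to W3) and APdE9 sections right (A1 to A3). Contractile genes have the strongest colours: Actg2 read 3.28 to 3.73 on wild-type and -0.11 to -0.10 on APdE9 arrays.

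Immediate early genes, which respond within minutes to stimulation, and Krüppel-like factors gave falls and no rise. Of 12 Krüppel-like factors 2 fell, with a median of -0.11, beside 9.4% of all genes called lower. Klf2, a factor induced by flow and by statins in endothelium, read 1.04, 1.87 and 1.87 against -1.54, -1.23 and -0.87 and fell by 2.80 (adjusted p = 7.71e-06). Of 20 immediate early genes 6 fell, but 1 was called without adult wild-type array 2. Egr1 (-0.35 ± 0.22) and Jun (-0.29 ± 0.26) were not called. Dusp1, a phosphatase induced by stress and by glucocorticoid, fell by 0.94.

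Genes that define astrocytes changed in a mixed way. The water channel Aqp4, of the endfeet around vessels, read -1.87, -1.81 and -1.79 against -1.31, -1.18 and -1.22 and rose by 0.58 ± 0.08 (adjusted p = 0.000298). Gja1, the main connexin of gap junctions between astrocytes, read 0.30, 0.51 and 0.50 against -0.06, -0.12 and -0.19 and fell by 0.56 (adjusted p = 0.000657), with -0.87 for its most variable probe set. The bicarbonate transporter Slc4a4 and the second connexin Gjb6 fell by 0.85 and 0.64. The glutamate transporter Slc1a2 (-0.22 ± 0.09), glutamine synthetase (Glul, -0.17 ± 0.08) and Aldh1l1 (0.10 ± 0.08), a folate enzyme used as an astrocyte marker, were not called. Mlc1, of endfoot membranes, S100b, a calcium-binding protein, and Sparcl1 (hevin), which bridges synapses, rose by 0.59 ± 0.09, 0.61 ± 0.12 and 0.53 ± 0.08. Of 13 transport and junction genes 5 rose and 3 fell, and of 14 metabolic and marker genes 5 rose and 2 fell. The rises in the transport list were 3 without any one of 5 adult arrays (wild-type array 1 or 2 or any APdE9 array) or with median centring, and 2 for the most variable probe sets. With quantile normalization Aqp4 differed by 0.35, and the transport and marker lists had 2 and 3 rises.

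Several transcription factors of astrocytes and their progenitors rose. Of 20 measured 7 rose and 1 fell, with a median of 0.40. Olig1 and Olig2, factors of the oligodendrocyte lineage and of some astrocytes, read -2.53, -2.41 and -2.32 against -1.25, -1.04 and -1.08, and -2.33, -2.37 and -2.24 against -0.91, -0.88 and -0.57. The gap between groups exceeded the spread within them, with rises of 1.30 ± 0.09 (adjusted p = 2.38e-06) and 1.53 ± 0.23 (adjusted p = 0.000695). Emx2 and Lhx2, of cortical progenitors, rose by 1.18 ± 0.14 and 0.90 ± 0.11, and Sox9 and Sox2, of neural stem cells and glia, by 0.61 ± 0.13 and 0.71 ± 0.15. The gene that fell was Nfix (-0.49 ± 0.07), while Nfia (-0.22 ± 0.11) and Nfib (0.01 ± 0.09) were not called. The most variable probe set of Nfia gave -1.07 (adjusted p = 0.00666).

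Growth factors moved in both directions, 7 of 22 up and 5 down. Igf1, the insulin-like growth factor that supports oligodendrocytes, read -0.58, -0.34 and -0.54 against -2.74, -2.60 and -2.22 and fell by 2.04 (adjusted p = 7.75e-07), and Igf2 read -1.20, -1.40 and -1.37 against 0.04, 0.02 and 0.32 and rose by 1.45 ± 0.18 (adjusted p = 0.000125). Igfbp3 rose by 1.71 ± 0.10 and Igfbp4 fell by 0.88, both binding proteins of these factors. Hgf fell by 1.24, and Bdnf, which supports neurons, and midkine (Mdk) rose by 0.60 ± 0.13 and 0.90 ± 0.14 (1.05 for Bdnf with quantile normalization). Of 18 Wnt genes 6 fell and 1 rose. Among those that fell were the antagonists Dkk2 (-1.91) and Sfrp1 (-1.12, -2.47 for its most variable probe set), their relative Dkk3 (-1.30) and the receptor Fzd2 (-1.36). The agonist Rspo3 rose by 0.83. The feedback target Axin2 differed by 0.31 ± 0.22 and was not called.

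Genes that make, bind or degrade amyloid beta were called in both directions, beside 8.26% of all genes called higher and 9.4% lower. The few calls among the amyloid-degrading proteases lie close to these shares. Of 12 genes for the precursor and its proteases 2 rose and 3 fell. App read 0.33, 0.12 and 0.17 against -0.15, -0.07 and -0.08, a difference of -0.31 ± 0.08 (adjusted p = 0.0222), with probe sets from -0.92 to 0.11 and no call without adult APdE9 array 1 or 2 or wild-type array 1, where the difference was -0.28, -0.32 and -0.24. The probes of App were not checked against the transgene. Beta-secretase Bace1 differed by 0.19 ± 0.08. Of 14 amyloid-degrading proteases 2 rose, Mmp9 and Mmp14 (0.54 ± 0.10, 0.82 for its most variable probe set), and 1 fell, neprilysin (Mme). Mme read -0.15, 0.14 and 0.13 against -0.99, -0.87 and -0.72, a fall of 0.90 (adjusted p = 0.000257) that reached -1.45 for its most variable probe set. Insulin-degrading enzyme (Ide) differed by 0.14 ± 0.08. Among 15 binding and scavenger receptors 5 rose and 4 fell. Scarb1, which binds lipoprotein and fibrillar amyloid, read 0.72, 0.82 and 0.87 against -0.01, 0.01 and 0.12 and fell by 0.76 (adjusted p = 6.55e-05), its lysosomal relative Scarb2 rose by 0.64 ± 0.07, and Cd36 differed by 0.01 ± 0.21. Megf10, an astrocyte receptor for engulfing synapses and debris, read -1.81, -1.75 and -1.99 against -0.07, -0.53 and -0.57 and rose by 1.46 ± 0.12 (adjusted p = 7.94e-06). Mfge8, which bridges dying cells to integrins, and the receptor Axl fell by 0.57 and 0.61 (Axl by -1.09 for its most variable probe set), while Mertk (0.30 ± 0.18) was not called (0.51, adjusted p = 0.0353, without APdE9 array 3).

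Of 22 cathepsins and lysosomal hydrolases 7 rose and 1 fell. Ctss, a cathepsin that microglia and macrophages secrete, read -4.92, -5.49 and -6.08 against -1.93, -1.91 and -2.05, a rise of 3.53 ± 0.22 (11.6-fold, adjusted p = 7.5e-07), or 1.96 with quantile normalization. Ctsk, which degrades collagen, rose by 1.01 ± 0.11, and Cd68, a lysosomal protein of macrophages, by 1.72 ± 0.18 (1.13 with quantile normalization). The ubiquitous cathepsins Ctsb (0.10) and Ctsd (0.09) were not called.

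Markers of other cells were counted because the astrocytes had lain on brain tissue. Of 25 microglia markers 8 rose and 2 fell, with a median of 0.37; the count of rises was 3 with quantile normalization, 5 without APdE9 array 2 and 4 without wild-type array 2. The mean of the list ran from -1.85 to -1.63 on the adult wild-type arrays and from -1.30 to -1.23 on the adult APdE9 arrays. In neonatal cells it ran from 1.12 to 1.60 on wild-type and from 1.63 to 1.80 on APdE9 arrays. There 6 of the 25 markers were called higher, beside 1.21% of all genes, with a median difference of 0.48. The difference between ages was called higher for 3 and lower for 3, with a median of -0.03. Ctss and Cd68 were the largest rises of the list in adult cells. Among genes that define microglia of healthy brain, the transcription factor Sall1 rose by 0.68 (1.19 for its most variable probe set) and the surface protein Tmem119 fell by 0.85. Tmem119 had the smaller of the 2 falls called in the list. P2ry12, Cx3cr1 and Csf1r differed by 0.10, 0.16 and 0.10 and were not called. Further macrophage genes outside the list, Mpeg1 (2.66 ± 0.14, 1.70 with quantile normalization) and Itgb2 (2.24 ± 0.16, 1.38), were among the 25 largest rises. Of 12 macrophage and monocyte markers 2 rose, with list means from -1.45 to -1.31 and from -1.07 to -0.97 in the adult groups. The part of microglia in the chemokine, metalloproteinase, interferon, complement and lysosome results was not tested.

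Of 11 oligodendrocyte markers 4 rose and 1 fell. Mbp, myelin basic protein, read -0.93, -1.28 and -1.18 against 0.40, 0.81 and 0.73 and rose by 1.78 ± 0.20, with its 8 probe sets ranging from -0.28 to 3.94, and it rose in neonatal cells too (1.80 ± 0.20). Myelin genes Mog and Mag differed by 0.14 and 0.13. The mean of the list ran from -0.17 to -0.16 on the wild-type arrays and from 0.10 to 0.20 on the APdE9 arrays. Of 14 neuron markers 3 fell and none rose, among them Thy1 (-1.88 ± 0.15), and list means were 0.13 to 0.18 on wild-type and -0.16 to -0.03 on APdE9 arrays. Of 10 fibroblast and meningeal markers, which share Col1a1, Col3a1, Lum and Dcn with the matrix lists, 4 fell and 3 rose, and their means were 0.41 to 0.53 and 0.07 to 0.33. Endothelial, ependymal and lymphocyte lists (11, 10 and 9 genes) gave no call in limma, with 4, 0 and 2 genes at an unadjusted p below 0.05. What these cell types contributed to the matrix and contractile results was not tested. Among housekeeping genes, 1 of 17 ribosomal proteins and 4 of 27 respiratory chain subunits were called higher and none lower. The latter count was 2 without any one of 4 adult arrays (wild-type array 1 or 2, APdE9 array 2 or 3) and 7 with array weights.

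The section effect differed between ages for 1831 of 18193 genes (10.1%), with the adult effect higher for 944 (5.19%) and lower for 887 (4.88%). In neonatal cells 684 genes (3.76%) were called, 220 higher (1.21%) and 464 lower (2.55%). Of 35 antiviral effectors, 9 had an effect that was higher in adult cells and 1 lower. In neonatal cells 4 of these 35 were called higher and 1 lower. There 2 of 14 class I genes and 1 of 9 guanylate-binding protein and GTPase genes also rose, beside 1.21% of all genes. Bst2 read 0.15, -0.04 and 0.04 against 0.15, 0.60 and -0.20 in neonatal cells on wild-type and APdE9 sections, an effect of 0.13 ± 0.18 there that was not called and a difference between ages of 1.88 ± 0.26 (adjusted p = 0.00081). Irf7 and Apoe behaved likewise, with neonatal effects of -0.09 ± 0.17 and -0.26 ± 0.09, neither called, and differences of 3.14 ± 0.24 and 2.18 ± 0.13 (adjusted p = 1.04e-05 and 2.62e-06). Of the 21 glutathione genes 9 had a higher adult effect, of the 22 contractile genes 8 a lower one, of the 18 amino acid genes 8 a lower one and of the 16 collagens 8 a lower one. Falls were also called in neonatal cells, for 5 of the 16 collagens (median -0.31) and 3 of the 22 contractile genes (median -0.26). None of either list rose there, and 2.55% of all genes fell. Aqp4 and Mlc1 rose in adult cells and fell in neonatal cells, with log2 differences of -0.74 and -0.71 in the latter.

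Some cell cycle and sterol genes fell at both ages. Of 42 mitotic and spindle genes 8 fell in neonatal cells, and 7 had a lower effect in adult cells, against 4.88% of all genes. Plk1 fell at both ages, with log2 differences of -1.37 in adult and -1.29 in neonatal cells, as did Idi1 with -1.55 and -1.40. The difference between ages was -0.08 ± 0.34 for Plk1 and -0.16 ± 0.36 for Idi1, neither called. Abcb1a, the drug efflux pump of the blood-brain barrier, rose in both, by 2.18 ± 0.21 and 1.70 ± 0.21. Il33 rose more in neonatal cells, by 1.64 ± 0.13 against 0.95 ± 0.13 (adjusted p of the difference = 0.0362).

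**Figure D5:**
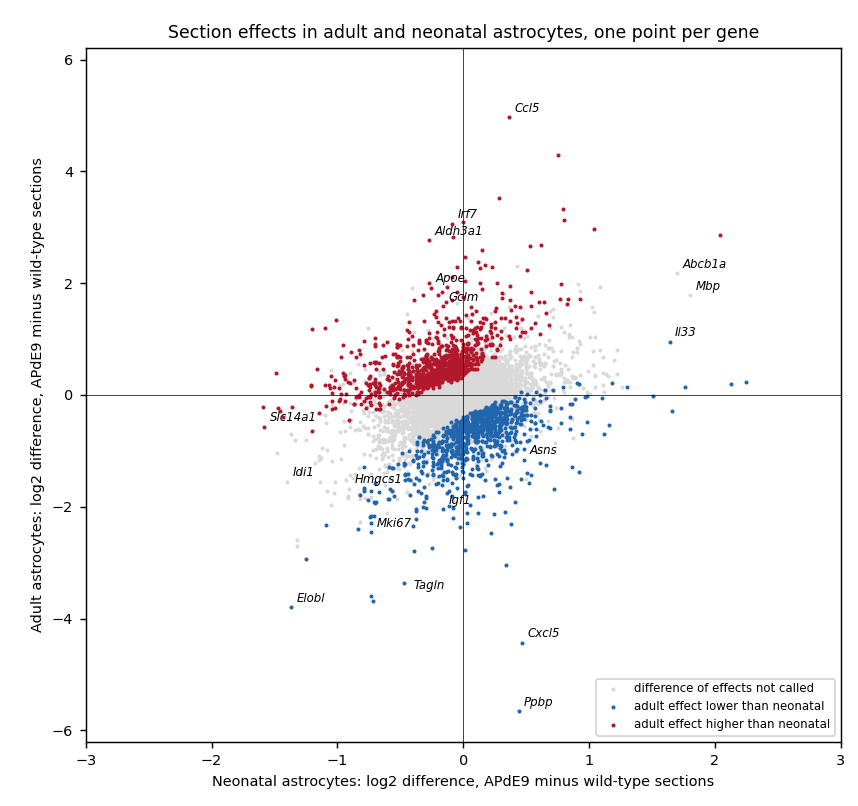
Each point is 1 gene, with the log2 difference between sections (APdE9 minus wild-type) in neonatal cells on the x axis and in adult cells on the y axis, which is drawn at a smaller scale. Red and blue points have an adult effect called higher or lower than the neonatal one, and grey points do not; Ppbp lies at 0.44 in neonatal and -5.66 in adult cells.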

How the data were processed

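Astrocytes were profiled on 12 arrays, 3 in each of 4 groups. The deposited values are log2 signals that the authors computed with RMA, per the submitters' processing notes, with no stated log base. In the 45095 probe sets with a full set of numbers the median over the arrays was 0, so levels had been removed. In 4 of the deposited columns, named score because of it, 6 values above 100 in size had lost their decimal point (1 of them in an adult array) and were treated as missing. The table holds 45101 probe sets, among them 64 controls, which were not tested. Each gene was given the average of the probe sets that the platform annotation ties to it alone (34945 in all, 34741 of them found in RefSeq), for 18193 genes. No filter on low values was applied.

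limma 3.58.1 (R 4.3.3) fitted 4 group means over 12 arrays, with 8 residual and 3.97 prior degrees of freedom. Contrasts were APdE9 minus wild-type in adult cells and the difference of that effect from the neonatal one, with Benjamini-Hochberg adjustment over all genes and a threshold of 0.05. Errors are standard errors of the fit unless stated. The fit was tested on simulated data. Alternatives were other normalizations, array weights, robust variance, a replicate block, other gene values, probe sets, a filter on the standard deviation, stricter thresholds, restored damaged values and leaving out each array.

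Named genes are the 25 largest rises and falls whose arrays do not overlap (without RIKEN or predicted names), up to 6 called members of each list and direction, uncalled members with a defining role, and a panel. B2m, Bdnf, Cdk1, Ifitm3, Oas2, Oas3, Oasl2, Plk1, Psmb9, Sqle, Tapbp, Tpm1, Tpm2, Tpm4, Vcl and the genes of neighbouring runs were added after their values were seen. The comparison and all lists were chosen with earlier results of these data known. RefSeq promoter windows were found for 58 of 73 interferon, 24 of 28 sterol, 35 of 42 mitotic, 19 of 22 contractile and 17 of 21 glutathione genes.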

Additional observations from a re-analysis of the deposited data

Results flagged for a closer look

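The section effect (APdE9 minus wild-type) differed between adult and neonatal astrocytes at an adjusted p below 0.05 for 141 of the genes named in the report, by the contrast of both effects in limma. The values in brackets are the adult minus the neonatal effect on the log2 scale. Age is tied to medium and isolation in this design, so these cannot be told apart.

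The adult effect was higher for the interferon and antigen presentation genes Bst2 (1.88), Ifit3 (1.42), Oas1a (1.32), Irf7 (3.14), Usp18 (1.12), Oasl1 (1.07), Oasl2 (1.51), Oas2 (0.87), Gbp3 (1.30), Igtp (1.09), H2-K1 (1.41), H2-D1 (0.70), Tapbp (0.68), Erap1 (0.69), Ifih1 (0.91), Ifi207 (2.54), Ifi204 (2.07) and Mndal (1.31). It was lower for Ifnar2 (-0.57), Samhd1 (-0.76) and Sting1 (-0.72), which fell in adult cells. Among chemokines, cytokines and NF-kappaB genes, it was higher for Ccl5 (4.61), Cxcl16 (0.71), Rela (0.69) and Vcam1 (0.69) and lower for Ccl6 (-1.16), Ppbp (-6.10), Cxcl5 (-4.90), Rassf6 (-1.41), Cxcl14 (-1.52), Il33 (-0.69) and Il6st (-0.78). Ccl6 was not called in adult cells, and Il33 rose at both ages. Secreted defence and reactive genes were split, Cfb (2.45), Lcn2 (2.91), Saa3 (1.92), Gfap (0.79) and Serpina3n (1.40) against Ptx3 (-0.94), Hp (-1.02) and Steap4 (-0.79), although neither Gfap nor Serpina3n was called in adult cells alone.

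Matrix-cutting enzymes differed by Mmp13 (3.54), Mmp12 (2.33) and Mmp3 (1.21) upward, and Mmp23 (-1.11) and Reck (-0.70) downward. The contractile, caveolar and collagen genes named in the report that differed had a lower adult effect, namely Myl9 (-1.69), Cnn2 (-1.45), Actg2 (-2.87), Tagln (-2.89), Tpm2 (-0.88), Tpm4 (-0.78), Tpm1 (-0.57), Cavin2 (-2.96), Col1a1 (-0.97), Col3a1 (-0.68), Col11a1 (-1.14), Col5a1 (-0.97), Lox (-1.36), P4ha2 (-1.45) and Loxl3 (-0.63). Other matrix, integrin and TGF-beta genes differed in both directions, Postn (1.52), Ncan (1.30), Epyc (2.25), Fmod (2.27), Itga6 (1.29), Tgfb3 (0.95), Tgfb2 (0.63) and Tgfbi (0.84) upward and Mfap5 (-2.48), Tnc (-2.02), Lum (-1.64), Itgb5 (-0.71) and Itga1 (-0.77) downward. Of the cell cycle genes, Ect2 (-1.07), Mki67 (-1.72), Ccna2 (-1.45), Cenpe (-1.23), Anln (-1.20), Rrm2 (-2.16), Ccne1 (-1.33) and Ccnd2 (-1.15) had a lower adult effect.

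Lipid genes with a higher adult effect were Apoe (2.18), Apod (0.88), Lipa (0.80), Npc1 (0.63), Fabp7 (1.56) and Srebf1 (0.89), and those with a lower one Tm7sf2 (-0.73), Elovl6 (-0.41) and Fabp5 (-2.42). Stress genes with a higher adult effect were Gclm (1.74), Gsta3 (0.92), Gsta4 (2.0), Gsta2 (2.46), Gclc (1.44), Slc7a11 (1.37), Mt3 (2.02) and Aldh3a1 (3.04), and those with a lower one Gsr (-0.94), Asns (-1.64), Slc7a5 (-1.37), Mthfd2 (-2.01), Chac1 (-1.38), Psat1 (-0.96), Adm (-2.23), Klf2 (-2.42) and Dusp1 (-0.71). The adult effect was higher for the astrocyte markers Aqp4 (1.32), Aldh1l1 (0.60), Mlc1 (1.30) and Sparcl1 (0.72). It was also higher for the transcription factors Olig1 (1.73), Emx2 (1.33), Lhx2 (1.40), Sox9 (0.80) and Sox2 (0.76). Aldh1l1 was not called in adult cells alone. In neonatal cells 5 of 14 astrocyte metabolism and marker genes and 3 of 20 transcription factors were called lower and none higher.

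Growth factor and Wnt genes were Igf2 (1.68), Igfbp3 (0.78), Mdk (0.69) and Rspo3 (0.75) upward and Igf1 (-1.88), Igfbp4 (-0.85), Hgf (-1.24), Dkk2 (-2.32), Sfrp1 (-0.96), Dkk3 (-0.74) and Fzd2 (-1.02) downward. Of the amyloid, scavenger and lysosome genes, Scarb2 (0.70), Megf10 (0.80), Ctss (3.25), Ctsk (0.88) and Cd68 (0.89) were higher and Mme (-0.78), Scarb1 (-0.53) and Axl (-0.55) lower. Markers of other cells and further large differences were Pou2af1 (3.10), Sall1 (0.95), Mpeg1 (2.13) and Itgb2 (1.73) upward and Tmem119 (-0.97) and Thy1 (-1.11) downward.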

How the results depend on the processing

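Of 201 genes named as higher or lower in adult cells, 194 kept their direction and adjusted p below 0.05 in all 21 settings run for single genes. The exceptions, given with values in the report, were App, C1qc, Cxcl1, Cxcl3, Lum, Pttg1 and Slc7a11. Of 80 named genes not called, 24 passed in at least 1 setting. Of these, Col1a2 (adjusted p = 8.17e-05) and Hmox1 (0.0343) passed only with the replicate block and Abcg1 and Srebf1 only with it or array weights. Cav1, Cxcl2, Ifi202b, Mcm2, Slc1a2, Slc2a1, Tap2 and Tgfbr2 passed in 1 to 6 settings, and the other 12 are given with a value in the report. Quantile normalization turned Cd36 to -0.42. Of 63 counts of list members of at least 3, 17 moved by more than 1.5 times somewhere.

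The 3213 calls became 5724 over probe sets (2580 higher, 3144 lower), 1844 at an adjusted p of 0.01 (804 and 1040) and 521 with an absolute log2 difference of at least 1 (181 and 340). Leaving out single arrays gave 2174 to 3382, with 995 to 1591 higher and the fewest without adult wild-type array 2. Median centring moved the split to 1328 higher and 1883 lower.

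The 1831 differences between ages became 3427 with array weights (1825 higher, 1602 lower), 3029 over probe sets (1514 and 1515), 818 at 0.01 (423 and 395) and 473 with a size of at least 1 (208 and 265). Without adult wild-type array 2 there were 1218 (564 lower), without neonatal wild-type array 2 1208 (578 lower), and the range over single arrays was 1208 to 1811 (564 to 979 lower).

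Same-numbered adult arrays correlated at 0.35, -0.15 and 0.50 after removal of group means and neonatal ones at 0.305, 0.147 and 0.519. Differently numbered arrays correlated at -0.499 to 0.244 in adult and at -0.477 to 0.17 in neonatal cells. As 1 same-numbered adult pair was below 0.1, the numbers were not treated as pairs. With the replicate number as a block 4217 genes were called (2024 higher, 2193 lower) and 2623 differences between ages.

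No cause of these moves was tested, other than the stricter thresholds and fewer arrays by construction. With 3 pooled arrays a group, the number of arrays limits the precision, and removal of the levels before deposit leaves signal over background unknown.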
